A study of Saccharomyces cerevisiae with 15 samples.

Results

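Gcn5p is the histone acetyltransferase of the SAGA and ADA complexes of budding yeast, which carry it to gene promoters and open reading frames, where it acetylates lysines on the tail of histone H3. The gcn5-F221A allele makes a protein without catalytic function. When expressed from a plasmid beside the chromosomal GCN5, it competes with native Gcn5p, and the strength of its promoter sets how strongly. The comparison described here is the step from the promoter of strength 0.32 to that of strength 0.68, over 5449 S. cerevisiae genes.

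The data are Affymetrix Yeast 2.0 arrays of whole cell RNA, 15 arrays in all from 5 strains with 3 biological replicates each, of which 6 arrays enter the comparison. The 3 arrays of genotype TEF3-GCN5 F221A (strength 0.32, that is 32% of the full TEF promoter) were set against the 3 arrays of genotype TEF11-GCN5 F221A (strength 0.68, 68%). Both strains are S288C with an intact chromosomal GCN5 and a G418-resistant plasmid carrying the mutant allele behind a mutated TEF promoter, grown in minimal medium with G418 to mid-exponential phase. No wild-type array enters the difference between these strengths. The wild-type with empty plasmid, the gcn5 null strain with empty plasmid and the strain of strength 0.95 appear below as levels, in comparisons laid beside this one, and in the spread of the 15-array fit. The strength is a property of the promoter, not a measured amount of mutant protein, and a difference in RNA per cell cannot be told apart from a difference in the mixture of cells in a culture. Levels are log2 signal values, so a difference of 1 is 2-fold, and with 3 arrays per strain only large differences can be told from the spread.

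The 6 arrays were uneven. Within strength 0.32 the arrays correlated across genes at 0.995 (replicates 1 and 2), 0.984 (1 and 3) and 0.981 (2 and 3), and within strength 0.68 at 0.977 (1 and 2), 0.984 (1 and 3) and 0.988 (2 and 3). Replicate 1 of strength 0.68 correlated more closely with replicates 1 and 2 of strength 0.32 (0.992 and 0.991) than with either array of its own strain. Replicate 3 of strength 0.32 stood apart from its strain as well. The spread between replicates, as the root mean variance over genes, was 0.256 at strength 0.32 and 0.288 at strength 0.68, against 0.120 in the gcn5 null, 0.151 in the wild-type and 0.183 at strength 0.95. Medians of the lists described below that moved by over 1.5 times without one of these 2 arrays, and were above 0.1 in size, are given with and without it. RNA integrity was read from 8 genes with probe sets at both ends, as the 5' level minus the 3' level, which was -3.30, -3.33 and -3.97 at strength 0.32 and -2.69, -3.47 and -2.66 at strength 0.68. Its part in the differences below was not tested. The defining alpha-factor gene MF(ALPHA)1 lay between 14.46 and 14.54 on all 6 arrays, as in an alpha strain, and the receptor of alpha factor, STE2, an a-cell gene, between 6.83 and 7.26. Of the other alpha-cell genes, MF(ALPHA)2 and SAG1 lay between 11.95 and 12.96, and STE3 between 9.49 and 9.89. Of the other a-cell genes, MFA1 and STE6 lay between 7.59 and 8.95, and MFA2, BAR1 and AGA2 between 5.82 and 7.09.

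GCN5 RNA, the manipulated quantity, was read by 1 probe set that cannot separate the plasmid copy from the chromosomal one. Its level was 11.53, 11.56 and 11.43 at strength 0.32 and 12.07, 11.88 and 11.76 at strength 0.68. The arrays of the strains did not overlap, and the difference was 0.40 ± 0.12 (SE). The limma adjusted p for it was 0.403 with the spread of these 6 arrays, 0.0408 with one spread from all 15, and 0.159 with all 15 and a variance factor per strain. For scale, the mean level was 8.92 in the wild-type with empty plasmid, 13.13 at strength 0.95 and 5.78 in the null strain.

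Across all genes, no gene passed limma's test at an adjusted p of 0.05 (0% of 5449, lowest adjusted p 0.403). At an unadjusted p of 0.05, 659 genes passed, 227 higher and 432 lower at strength 0.68. The median difference was -0.02, and the SD over genes 0.303, with 5th and 95th percentiles of -0.44 and 0.55. The 95% interval of a gene's difference had a median half-width of 0.349. Differences over 2-fold were found in 35 genes higher and 2 genes lower at strength 0.68. When one spread was estimated from all 15 arrays, limma called 183 genes, 53 higher (0.973% of genes) and 130 lower (2.39%), but that spread is set largely by strains whose arrays lie closer together than these. With a variance factor for each strain the 15-array fit called 0 genes (lowest limma adjusted p 0.157), so every 15-array call given below is lost there. A count that needs no estimate of spread is that of genes whose 3 arrays at one strength all lie above the 3 at the other: 283 genes (5.19%) lay higher and 730 (13.4%) lower at strength 0.68. Of the 53 and 130 genes called with 15 arrays, 51 and 130 were among these. With 3 arrays per strain some genes separate this way even where strains do not differ, and the share lying higher is near that level. The counts are therefore a description and not a list of changed genes.

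Leaving out replicate 1 of strength 0.68 brought out 42 of 5449 genes at limma's adjusted p of 0.05, 16 higher and 26 lower. Then 925 genes (17%) lay higher and 1252 (23%) lower without overlap, though fewer arrays overlap less often by construction. Without replicate 3 of strength 0.32 no gene was called, and 377 passed at an unadjusted p of 0.05. Without both, 11 genes were called, 10 of them higher. Of the 6 arrays, only replicate 1 of strength 0.68 gave called genes when left out alone. In genes where replicate 1 lies toward the 0.32 arrays, leaving it out widens the difference and narrows the spread by construction. Calls made without it, here and in the lists below, are therefore no independent support.

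**Figure D1:**
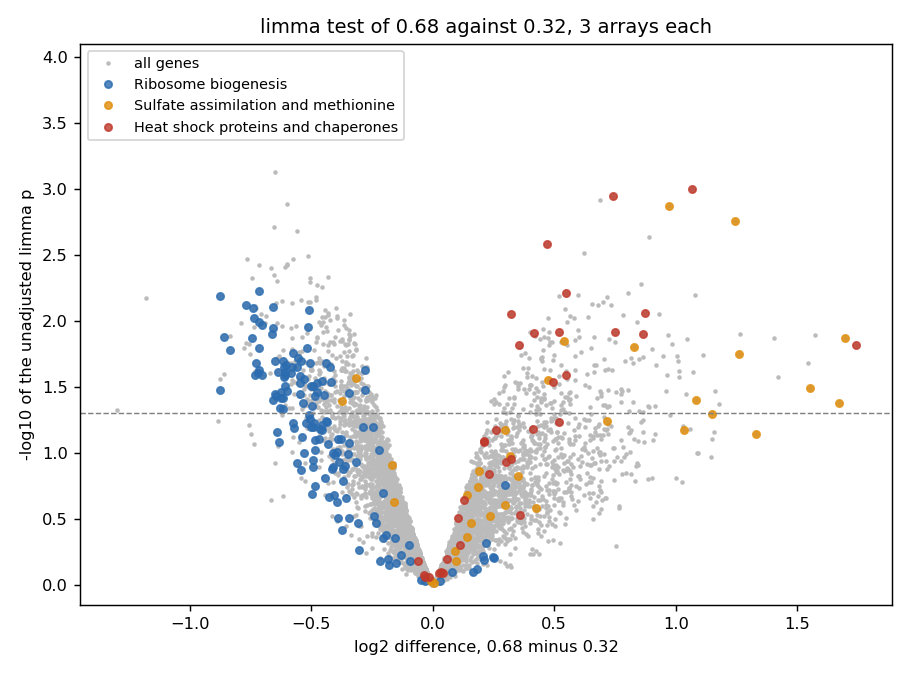
Each point is a gene, with the log2 difference (0.68 minus 0.32) on the horizontal axis and -log10 of the unadjusted limma p on the vertical axis (3 arrays per strain). The dashed line is an unadjusted p of 0.05, and colours mark 3 gene lists. The ribosome biogenesis genes lie to the left, with a median of -0.49, and most sulfate and heat shock genes to the right.

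The largest differences were ranked only among genes above background whose arrays did not overlap between strengths. Of the 35 genes over 2-fold higher, 17 were free of overlap, so some large differences were left out of the ranking. The 12 largest in the higher direction held the small heat shock protein gene HSP26 and 4 genes of sulfate assimilation and methionine synthesis, MET28, MET32, MET2 and MET8. HSP26 gave 11.79, 11.89 and 9.99 at strength 0.32 and 13.16, 12.38 and 13.35 at strength 0.68, a difference of 1.74 ± 0.54 (SE), which was 1.12 without replicate 3 of strength 0.32. The low array at strength 0.32 was that replicate. Lack of overlap was a condition for this ranking and is no result for the gene. RMD6, a gene named for a meiotic division phenotype, shared that low array, with 8.75, 8.83 and 7.39 against 9.48, 9.59 and 10.62. None of these genes passed the test with 6 arrays (limma adjusted p of 0.403).

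MET28 and MET32 encode DNA-binding partners of Met4p, the activator of the sulfur genes. MET28 gave 9.64, 9.51 and 9.35 at strength 0.32 and 9.92, 11.74 and 11.94 at strength 0.68. MET32 gave 8.37, 8.36 and 8.29 against 8.43, 10.59 and 10.67. In both genes replicate 1 of strength 0.68 lay just above the 0.32 arrays, and replicates 2 and 3 stood well apart from it. The differences were 1.70 and 1.55 with all arrays and 2.34 and 2.29 without replicate 1. Without it the limma adjusted p was 0.0104 and 0.00468, and leaving out the discordant array lowers such values by construction.

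The other genes of the leading group split the same way or more evenly. YKL068W-A, an open reading frame with no role known here, gave 10.32, 10.19 and 10.00 against 10.44, 12.19 and 12.51. BAP3, a permease for branched-chain amino acids, gave 5.43, 5.25 and 5.62 against 5.70, 6.78 and 7.15, and TIS11, an mRNA-binding protein of the iron response, 7.58, 7.77 and 7.31 against 7.92, 8.94 and 10.08. In these genes replicate 1 was the lowest of the 0.68 arrays. YRO2, a plasma membrane protein related to Hsp30p, gave 10.37, 10.51 and 9.90 against 10.69, 11.77 and 12.11. GPM2, a homolog of phosphoglycerate mutase, gave 7.74, 7.92 and 8.05 against 8.67, 8.90 and 10.35, and here replicate 3 was the array that stood out. The remaining open reading frame among the leading 12, YIR042C, differed by 1.08.

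**Figure D2:**
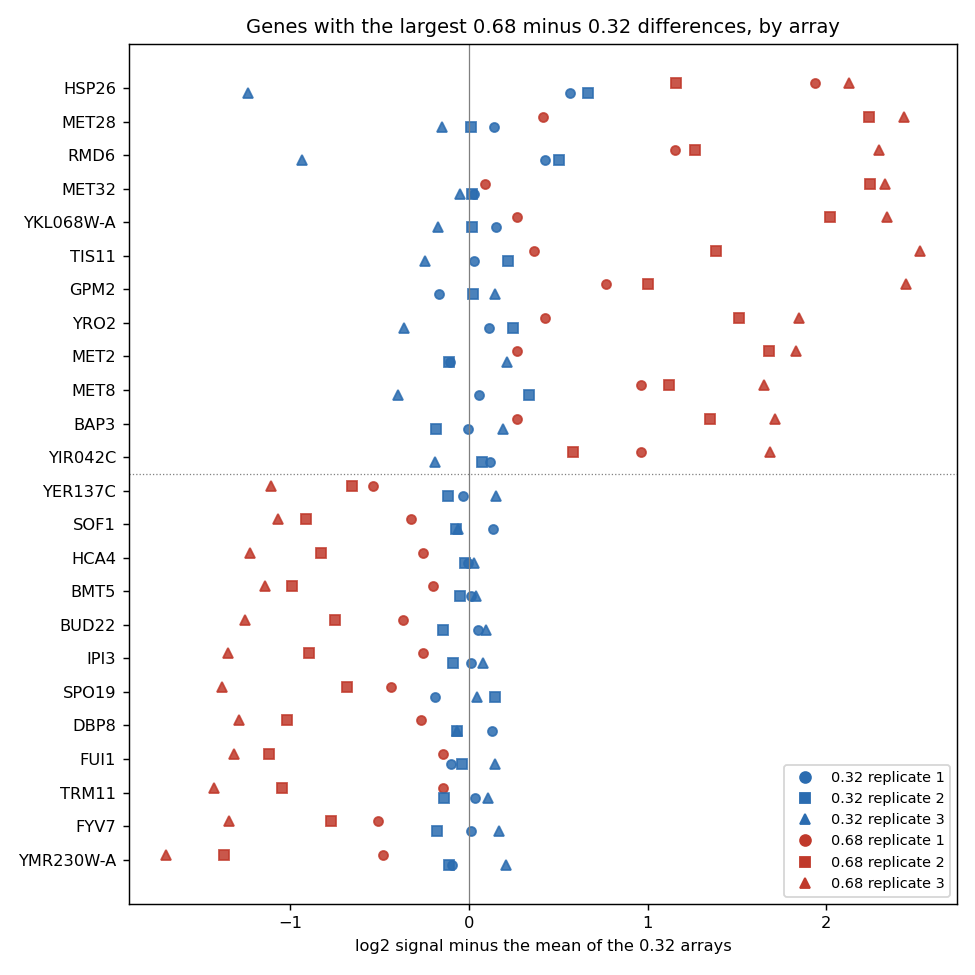
Log2 signal of each array minus the mean of the 0.32 arrays (horizontal axis) for the 12 genes with the largest differences in each direction (vertical axis). Only genes above background whose arrays did not overlap between strengths were ranked. Blue marks are the 0.32 arrays and red marks the 0.68 arrays, with the replicate given by shape. In MET32, TRM11 and FUI1 the red circle (0.68 replicate 1) lies next to the blue marks while the other red marks lie apart.

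By the same ranking, the 12 largest differences in the lower direction were smaller in size, from -1.18 to -0.77. The first, YMR230W-A, an open reading frame without a role given here, had 9.24, 9.23 and 9.54 at strength 0.32 and 8.86, 7.97 and 7.65 at strength 0.68. FYV7, DBP8, SOF1 and IPI3 are factors of ribosomal subunit assembly. DBP8, a helicase of small subunit assembly, gave 10.65, 10.45 and 10.45 against 10.25, 9.50 and 9.23, and FYV7 10.57, 10.38 and 10.72 against 10.05, 9.78 and 9.21. BMT5, HCA4 and BUD22, of rRNA methylation and ribosome assembly, and TRM11, of tRNA methylation, differed by -0.78, -0.77, -0.79 and -0.87. FUI1, the uridine permease, gave 11.27, 11.34 and 11.52 against 11.23, 10.26 and 10.06, so that replicate 1 of strength 0.68 lay just below the 0.32 arrays. The other genes of the group were SPO19, a meiotic gene (-0.84) whose mean was above background only at strength 0.32, and YER137C (-0.77).

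Ribosome biogenesis genes, which make and assemble the ribosomal subunits, had the most negative median of the 35 lists. Of 146 genes measured, 58 (39.7%) lay lower at strength 0.68 without overlap and none lay higher, against 13.4% and 5.19% of all genes. Their median difference was -0.49, beside -0.02 over all genes, and 136 of the 146 differences were negative. None passed the test with 6 arrays. With the spread of 15, 31 were called lower, against 130 of all 5449 genes (2.39%). Without replicate 1 of strength 0.68, 17 were called lower, against 26 of all genes, and the median was -0.73. The mean level of the list was 11.29, 11.21 and 11.03 on the 0.32 arrays and 11.23, 10.53 and 10.46 on the 0.68 arrays. Replicate 1 lay nearer to the 0.32 mean than to the mean of its own sister arrays in 141 of the 146 genes (96.6%), against 51.9% of all genes. Replicates 2 and 3 lay near the gcn5 null (10.44 to 10.50), and replicate 1 near the wild-type (11.11 to 11.21). The 0.95 arrays lay at 10.93 to 11.15.

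Genes that work beside ribosome assembly differed less. Of 26 subunits and factors of RNA polymerases I and III, which transcribe rRNA and tRNA, 6 (23.1%, against 13.4% of all genes) lay lower without overlap and the median was -0.27 (-0.47 without replicate 1). RPA12, a subunit of RNA polymerase I, gave 12.37, 12.25 and 12.43 against 12.01, 11.82 and 11.48, a difference of -0.58. RPC53 of RNA polymerase III and the initiation factor gene RRN6 differed by -0.55 and -0.54, and RPA14 by -0.52. The cytoplasmic ribosomal proteins had no such shift. Of 128 genes, 12 (9.38%) lay lower, fewer than the 13.4% of all genes, none lay higher, and the median was -0.04. Among these RPL22B had the most negative difference, -0.32. The mitochondrial ribosomal proteins had a median of 0.02 over 66 genes.

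**Figure D3:**
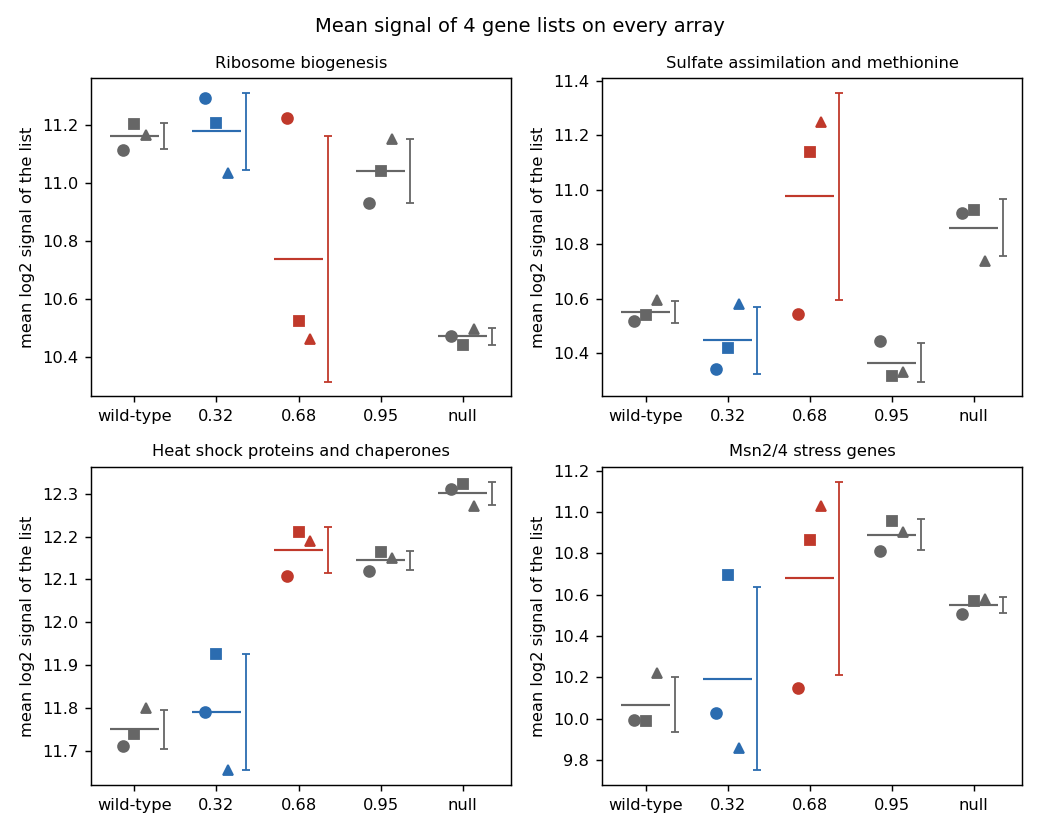
Mean log2 signal of 4 gene lists (vertical axis) on each of the 15 arrays, by strain (horizontal axis), with lines at strain means and bars of 1 SD over 3 arrays. Circles, squares and triangles are replicates 1, 2 and 3. For ribosome biogenesis replicate 1 of strength 0.68 (11.23) lies with the 0.32 arrays and replicates 2 and 3 (10.53 and 10.46) with the null arrays. The vertical axes do not start at 0.

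Sulfate assimilation and methionine genes, which reduce sulfate and build the sulfur amino acids, held several of the largest differences in the higher direction. Of 33 genes, 9 (27.3%) lay higher without overlap and 3 (9.09%) lower, against 5.19% and 13.4% of all genes, with a median of 0.32. The list's mean level was 10.34, 10.42 and 10.58 at strength 0.32 and 10.54, 11.14 and 11.25 at strength 0.68. Replicate 1 of strength 0.68 lay inside the range of the 0.32 arrays. Without it, the median was 0.50 and 7 genes were called higher by limma, against 16 of all 5449 genes. They were MET28, MET32, MET2, MET1, STR3, MUP1 and MUP3, of which the last 4 were named after their values were seen. STR3, a cystathionine beta-lyase, and the methionine permease genes MUP1 and MUP3 overlapped between strengths when replicate 1 was kept. MUP3, for example, gave 9.13, 9.20 and 9.70 against 9.13, 11.53 and 11.36. MET2, homoserine acetyltransferase, gave 9.89, 9.89 and 10.21 against 10.27, 11.68 and 11.83. MET8, of siroheme synthesis, was the more even of the leading genes, with 7.31, 7.60 and 6.86 against 8.22, 8.38 and 8.91, and a difference of 1.24 ± 0.25 (SE). It was among the 6 genes of the list called higher with the spread of 15 arrays (limma adjusted p 0.0408), against 0.973% of all genes. The differences did not extend to strength 0.95, where the mean level of MET28 was 9.26 against 11.20 at strength 0.68 and 9.95 in the wild-type.

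Heat shock proteins and chaperones, which fold and rescue proteins, separated more evenly across arrays. Of 34 genes, 17 (50%) lay higher at strength 0.68 without overlap and none lower, against 5.19% and 13.4% of all genes. The median was 0.32 with all arrays and 0.31 without replicate 1 of strength 0.68, and 0.24 without replicate 3 of strength 0.32. The list's mean level was 11.79, 11.93 and 11.65 at strength 0.32 and 12.11, 12.21 and 12.19 at strength 0.68, so the strains did not overlap and replicate 1 lay with its own strain. HSP42 gave 10.66, 10.65 and 10.04 against 11.62, 11.37 and 11.55, a difference of 1.07 ± 0.19 (SE), and passed with the spread of 15 arrays (limma adjusted p 0.0192). SSE2, an Hsp70-related nucleotide exchange factor, gave 9.19, 9.54 and 8.98 against 9.60, 10.23 and 10.49. HSP30, of the plasma membrane, gave 11.36, 11.33 and 11.95 against 12.03, 12.52 and 12.71. In all, 12 of the 34 were called higher with 15 arrays, against 0.973% of all genes, and none with 6. The list stood at 12.12 to 12.16 on the 0.95 arrays, 12.27 to 12.32 in the null and 11.71 to 11.80 in the wild-type.

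The general stress genes, which Msn2p and Msn4p activate, had the larger median but overlapped. Of 65 genes, 63 had a positive difference, with a median of 0.43, yet 6 (9.23%, against 5.19% of all genes) lay higher without overlap. The list shares genes with the heat shock list, HSP26 and HSP42 among them, so the lists are not separate results. The mean level of the list was 10.03, 10.70 and 9.86 at strength 0.32 and 10.15, 10.86 and 11.03 at strength 0.68. Replicate 2 of strength 0.32 lay above replicate 1 of strength 0.68. Without replicate 1 the median was 0.78, and without replicate 3 of strength 0.32 it was 0.32. GRE3, an aldose reductase, gave 9.97, 10.35 and 9.85 against 10.47, 10.86 and 11.18, and SSA4, an inducible Hsp70, differed by 0.75. No gene of 22 in trehalose and glycogen metabolism and none of 33 proteasome genes were free of overlap, though both medians were 0.28. Over all genes, 5.19% lay higher and 13.4% lower. The trehalose and glycogen median was 0.51 without replicate 1 of strength 0.68. Then 14 of the 22 genes lay higher without overlap, against 17% of all genes. The proteasome median was 0.13 without replicate 3 of strength 0.32.

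Glycolysis and tricarboxylic acid cycle genes lay higher in part, while none passed the test with 6 arrays. In glycolysis and fermentation 10 of 20 genes (50%, against 5.19% of all genes) lay higher without overlap, all 20 differences were positive, and the median was 0.17. ENO1, enolase, gave 12.61, 12.74 and 12.93 against 13.05, 13.51 and 13.63, a difference of 0.64. PFK1 and PFK2, the subunits of phosphofructokinase, differed by 0.35 and 0.29, and PGK1, phosphoglycerate kinase, by 0.27. Of 17 tricarboxylic acid cycle genes, 5 (29.4%, against 5.19%) lay higher, and the median was 0.32. SDH4 and SDH2 of succinate dehydrogenase differed by 0.97 and 0.84, and IDH1 of isocitrate dehydrogenase by 0.45. Its partner IDH2 gave 11.27, 11.34 and 11.66 against 11.47, 11.76 and 11.94, which overlap.

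Genes of amino acid synthesis under Gcn4p had 11 of 60 (18.3%) higher and 3 (5%) lower, against 5.19% and 13.4% of all genes, with a median of 0.08. Among the genes free of overlap, LEU2, ARO3, LYS5 and HOM3 differed most, from 0.36 to 0.54. LEU2 gave 11.79, 11.59 and 11.93 against 12.09, 12.38 and 12.47. The respiratory chain list had 4 of 37 (10.8%) higher and 1 (2.7%) lower, against the same shares of all genes, with a median of 0.08. The fatty acid oxidation list had 2 of 23 (8.7%) higher and 0 lower, with a median of 0.06.

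Many mating genes lay lower, by amounts that did not pass the test with 6 arrays. Of 31 pheromone response genes, 13 (41.9%, against 13.4% of all genes) lay lower at strength 0.68 without overlap and 1 (against 5.19%) higher. The median was -0.35, and -0.22 without replicate 3 of strength 0.32. The list's mean level was 8.63, 8.67 and 8.83 at strength 0.32 and 8.51, 8.49 and 8.40 at strength 0.68. It stood at 8.55 to 8.65 on the 0.95 arrays, 7.78 to 7.90 in the null and 8.55 to 8.66 in the wild-type. AGA1, the anchor of the agglutinin, gave 11.19, 11.25 and 11.43 against 10.77, 10.71 and 10.43, a difference of -0.65 ± 0.13 (SE) that passed with the spread of 15 arrays (limma adjusted p 0.0192). PRM6, PRM3 and PRM1, pheromone-regulated membrane proteins, differed by -0.72, -0.65 and -0.60. Replicate 1 lay with its own strain in these genes, and PRM6, for one, gave 5.70, 5.80 and 6.19 against 5.26, 5.29 and 4.98, the latter at the background of the array (5.18). The alpha-specific genes held 2 of 4 (50%, against 13.4% of all genes) lower without overlap, MF(ALPHA)2 by -0.64 and SAG1 by -0.35. The a-specific genes, which an alpha cell does not need, held 2 of 6 (33.3%, against 13.4%), STE2 by -0.32 and BAR1 by -0.19. All 4 and all 6 differences were negative, the smallest being that of STE3 (-0.02).

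The list of phosphate genes holds PHO84, the high-affinity transporter. Of its 22 genes, 6 (27.3%) lay lower without overlap and 2 (9.09%) higher, against 13.4% and 5.19% of all genes. The median was 0.03. PHO84 gave 8.48, 8.37 and 8.22 against 7.81, 7.96 and 7.76, a difference of -0.51. PHM6 and PHO3 differed by -0.66 and -0.51, and PHO11, an acid phosphatase, by -0.31. Mean PHO84 levels were 10.38 in the wild-type, 8.35 at strength 0.32, 7.84 at 0.68 and 8.02 at 0.95. In the null strain PHO84 had a difference of -4.33 from the wild-type. IZH4, a membrane protein of zinc metabolism, differed by -0.62.

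Among chromatin genes, the SAGA list was near the shares of all genes, and some acetyltransferases and deacetylases lay lower. Of 22 SAGA and related subunits, 1 lay higher, GCN5 itself, and 3 lower, HFI1 (-0.30), SPT8 (-0.22) and TRA1 (-0.08), with a median of -0.08. The 1 and 3 of 22 are 4.55% and 13.6%, beside 5.19% and 13.4% of all genes. Among 28 acetyltransferases and deacetylases, 6 (21.4%) lay lower and 2 (7.14%) higher, against 13.4% and 5.19% of all genes. The median was -0.18, and -0.10 without replicate 3 of strength 0.32. ELP3, the catalytic subunit of Elongator, gave 10.04, 10.05 and 9.88 against 9.86, 9.43 and 9.33. SIR2, a deacetylase of silent chromatin, gave 9.69, 9.64 and 9.65 against 9.44, 9.31 and 9.13, a difference of -0.37. With the spread of 15 arrays SIR2 passed (limma adjusted p 0.0441) and ELP3 did not (0.0604). SIR2 was the 1 gene of these 28 called lower that way, against 2.39% of all genes. None of the 10 histone genes was free of overlap, where 5.19% of all genes lay higher and 13.4% lower.

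**Figure D4:**
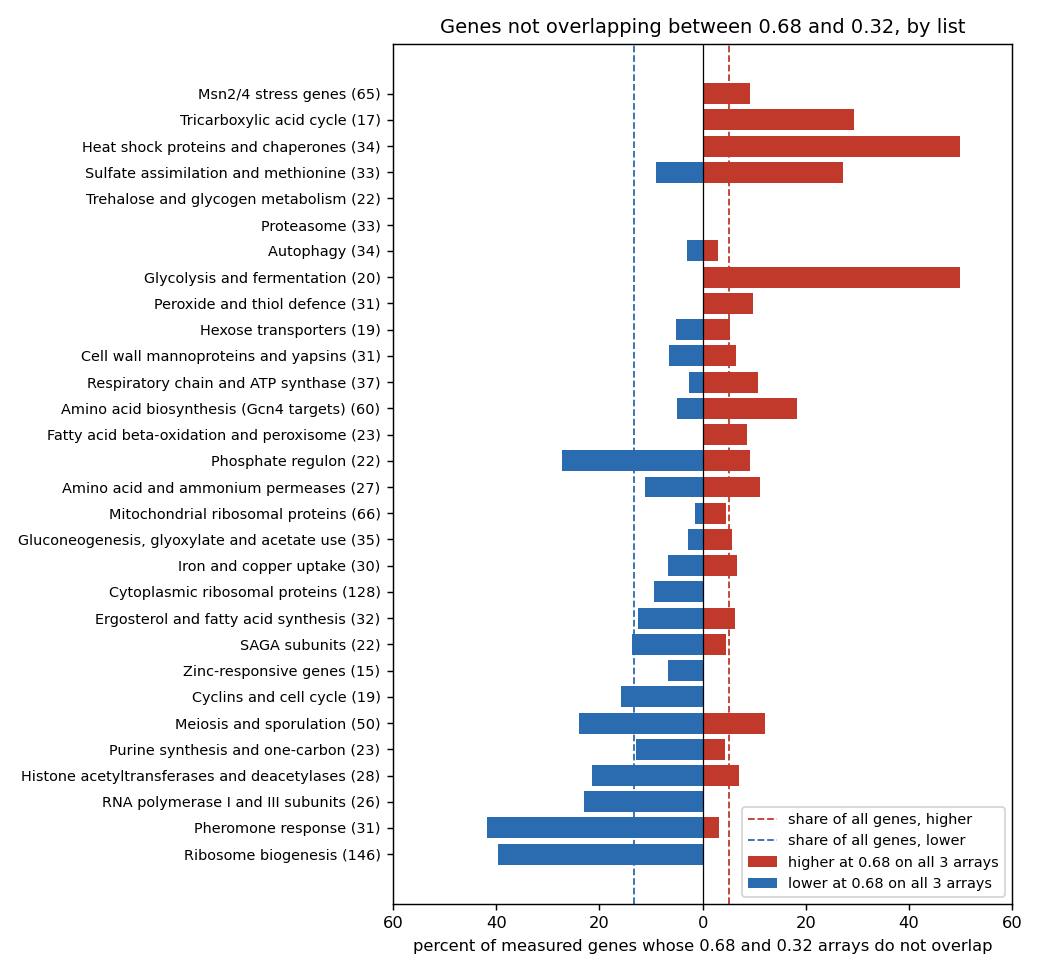
Percent of the measured genes of each list (number in parentheses) whose 0.68 arrays all lay above (red, to the right) or all below (blue, to the left) the 0.32 arrays. Lists run down by median difference, and dashed lines are the shares of all genes, 5.19% and 13.4%. Heat shock and glycolysis reach 50% higher, and pheromone response reaches 41.9% lower. Lists with under 15 measured genes are not drawn.

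Meiosis genes went both ways, with 6 of 50 (12%) higher and 12 (24%) lower, against 5.19% and 13.4% of all genes. The median was -0.11, and -0.05 without replicate 3 of strength 0.32, and 33 of the 50 stood above the background of the array. MND1, a meiotic recombination gene, gave 4.41, 4.36 and 4.43 against 4.73, 5.43 and 5.44, and cleared the background of 5.18 only in its 0.68 mean. SPS1 and SPS4 differed by -0.61 and -0.60.

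Genes that the study followed at several promoter strengths, and so chose on these samples, overlapped between strengths in this step. TKL2, a transketolase, gave 7.85, 9.96 and 6.66 at strength 0.32 and 7.64, 9.03 and 8.75 at strength 0.68, and its difference of 0.32 was -0.43 without replicate 3 of strength 0.32. SPL2, an inhibitor of low-affinity phosphate transport, gave 7.82, 7.57 and 8.13 against 7.13, 7.63 and 7.17, a difference of -0.53. RRT5 gave 5.83, 6.34 and 5.75 against 6.43, 4.84 and 4.80, replicate 1 being the highest array of all 6, and its difference was -0.62 with that array and -1.15 without it. Replicates 2 and 3 of strength 0.68 lay under the background of the array (5.18) for RRT5. ZRT1, the high-affinity zinc transporter, differed by -0.17, ETR1, an enoyl reductase of mitochondrial fatty acid synthesis, by 0.11, and ATG38 by 0.01.

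The difference between gcn5 null and wild-type shares no array with this step, and was laid beside it. Over the 5449 genes the differences correlated at r = 0.555 (Spearman 0.592), and at r = 0.574 without replicate 1 of strength 0.68. The points share the array type and the genes are not independent, so no p is given. The 5' minus 3' level ran the same way in both comparisons, with means of -3.44 in the wild-type and -2.90 in the null, and of -3.53 at strength 0.32 and -2.94 at strength 0.68. Its part in the agreement was not tested. Of the 283 genes higher at strength 0.68, 239 (84.5%) were also higher in the null, and of the 730 lower genes 617 (84.5%) were also lower, where 48.9% and 51.1% of all genes were higher and lower in the null. The difference between strength 0.95 and wild-type correlated at r = 0.264, with 172 of 283 (60.8%) and 468 of 730 (64.1%) sharing direction, against 49.8% and 50.2% of all genes.

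**Figure D5:**
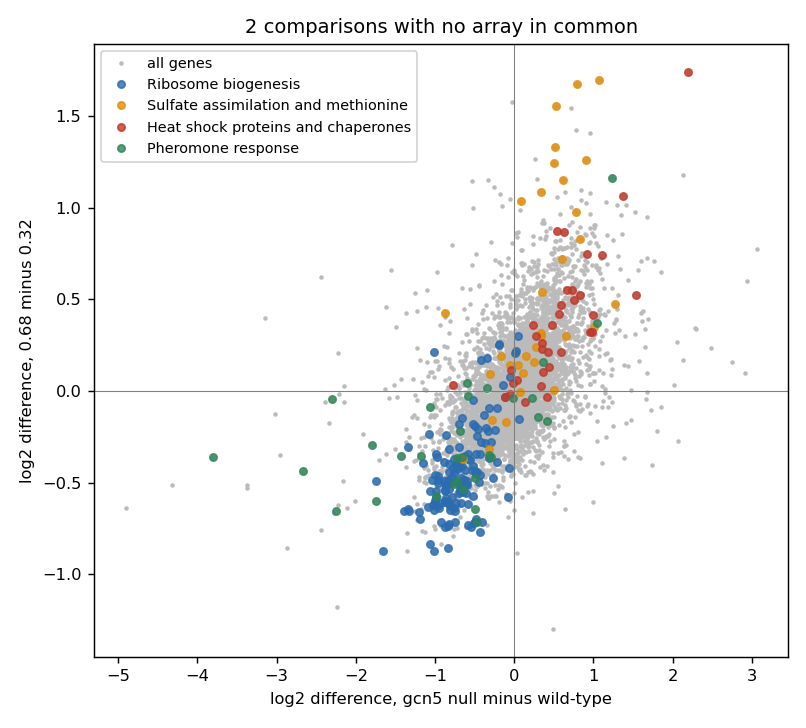
Log2 difference of each gene between gcn5 null and wild-type (horizontal axis) and between strengths 0.68 and 0.32 (vertical axis), with 4 gene lists coloured. The cloud runs from lower left to upper right (r = 0.555). Ribosome biogenesis genes fill the lower left, and heat shock genes lie mostly in the upper right.

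The mean at strength 0.95 was set against the means at 0.32 and 0.68 for the genes free of overlap. Of the 283 higher genes, it lay beyond the 0.68 mean in 39, between both in 180, and at or before the 0.32 mean in 64. For the 730 lower genes the counts were 81, 506 and 143. The genes were picked on the 0.32 and 0.68 arrays, which favours a 0.95 mean inside that range. Levels at strength 0.95 differed from gene to gene. DBP8, for one, stood at 10.44 at strength 0.95, beside 10.06 in the wild-type and 9.23 in the null. HSP78, a mitochondrial disaggregase named after its values were seen, stood at 10.99 at strength 0.95, where its 0.32 arrays read 10.32, 10.43 and 10.07 and its 0.68 arrays 10.85, 11.10 and 11.10.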

How the data were processed

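Whole cell RNA of 15 cultures was hybridised to Affymetrix Yeast 2.0 arrays. The authors summarised and normalised the scans with the Robust Multichip Average (RMA) method and deposited log2 values for 10928 probe sets. The versions used and the genome build are not given in the sources used here. Robust normalisation forces similar distributions on all arrays, so a shift of most genes together would not be seen. Of these, 5498 probe sets had one S. cerevisiae gene and 1747 were S. pombe probe sets, whose 95th percentile (5.18) served as background, above which at least one strain mean had to lie for a gene to be named. A further 3683 probe sets had no single S. cerevisiae gene and were not used in the main analysis. For the 47 genes with several probe sets 1 was kept.

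Differences were fitted with limma 3.58.1 in R 4.3.3 (lmFit, eBayes) to the 3 arrays of strength 0.68 and the 3 of strength 0.32, without covariates, with Benjamini-Hochberg adjustment over 5449 genes and a threshold of 0.05. The fit was tested on simulated data. Only these 6 arrays were used since the other strains spread less. Named genes were GCN5, the 12 largest differences in each direction among genes whose arrays did not overlap, up to 4 such genes per list, and 7 genes the study followed. All members and the 35 gene lists were chosen with earlier results of these data known. Arrays were replicates by label, from separate cultures. Replicate numbers did not pair the arrays.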

Additional observations from a re-analysis of the deposited data

How the results depend on the processing

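With 6 arrays, the count of called genes stayed at 0 under the array weights, the trended robust variance, median centring, quantile normalisation, dim genes dropped, the mean of probe sets and every probe set. With 15 arrays it was 183 with one variance and 0 with a variance factor per strain. With 6 arrays it was 659 at an unadjusted p and 26 at an unadjusted p with over 2-fold. Leaving out single arrays gave 0 to 42 (the 42 without 0.68 replicate 1). Chosen after seeing the data, the count without 0.68 replicate 1 and 0.32 replicate 3 together was 11, and with 15 arrays 1073 without both, 1053 without the first and 10 without the second. Genes that did not overlap numbered 1089 to 2328 when single arrays were left out and 2886 without both, partly since fewer arrays overlap less. GCN5 passed with one variance over 15 arrays (0.40), also without 0.68 replicate 1 (0.32) or both arrays (0.28). It did not without 0.32 replicate 3 (0.36, limma adjusted p 0.0916) or with a variance factor per strain (adjusted p 0.159), and its difference was 0.32 to 0.47 with single arrays left out of the 6. The numbers do not pair the arrays (same-number correlations of deviations 0.524, -0.31 and -0.339), and the replicate block left 0 genes called and GCN5 at 0.40. Across numbers, 0.32 replicate 3 with 0.68 replicate 2 gave 0.543, and 0.32 replicate 2 with 0.68 replicate 3 gave 0.506. A pairing in that order was not tested. Of 120 genes followed, 116 kept their direction under all settings run. TKL2 went to -0.0749 with array weights, -0.43 without 0.32 replicate 3 with 15 arrays, and -0.0139 without both arrays, in the 6-array and the 15-array fit. ATG38 went to -0.00123 with median centring and -0.00339 with quantile normalisation. With single arrays left out, differences ran from -0.43 to 1.22 for TKL2, -0.0393 to 0.298 for ETR1, -0.104 to 0.0851 for ATG38 and -0.316 to 0.00201 for ZRT1. Of 35 list medians, 10 moved by over 1 SD of the replicates' list means in some setting. Pheromone response, meiosis, and acetyltransferases and deacetylases moved to -0.22, -0.05 and -0.10 without 0.32 replicate 3, and RNA polymerases I and III to -0.58 without both arrays. The cause was not tested.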
